A study of Mus musculus with 6 samples.

Results

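The 10 genes described here encode S100 proteins and were chosen by name as a family, S100a3, S100a4, S100a6, S100a7a, S100a8, S100a9, S100a10, S100a11, S100a14 and S100a16, out of 35275 gene identifiers in the deposited table. All 10 were found by symbol. Epidermal cells came from back skin of CD1 IGS mouse embryos at E16.5, whose dams had received doxycycline from E14.5, and were sorted for a fluorescent histone in the nucleus (H2B-GFP). The 3 libraries of one group are labelled control, and the 3 of the other K10rtTA;TREspastin, called K10-spastin below. In K10-spastin the keratin 10 promoter, active in suprabasal cells, drives the doxycycline-dependent activator rtTA, which switches on spastin, an enzyme that severs microtubules. For the dams the protocol names K10-rtTA, TRE-H2B-GFP and TRE-Spastin. The labels give neither the transgenes of control embryos nor the number of embryos per library, so p-values reflect only how these samples varied. Doxycycline was common to both groups.

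S100 proteins are small calcium sensors with EF-hand loops, and most work as dimers that bind a partner protein when calcium rises. Inside cells they bind annexins, myosin and other partners of membrane and cytoskeleton. Some, above all S100a8 and S100a9, are also released as alarmins, and this pair forms calprotectin, which is abundant in neutrophils and is made by keratinocytes in wounded or inflamed skin. Most of the family lies in the epidermal differentiation complex, beside genes of the cornified envelope.

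Levels are FPKM, fragments scaled by gene length and sequencing depth, so that levels of different genes can be set side by side. Library depth, read from the step size of low values, was 16.002 to 22.5 M (mega) fragments. Spast stood at 22.2 ± 1.57 FPKM in control against 761 ± 618 in K10-spastin (SD, n = 3), higher in each library labelled K10-spastin. Groups were compared with limma on log2(FPKM + 1), with calls made where the adjusted p was under 0.05. Of 7 suprabasal markers, all tested, 4 had a positive change, with a median of 0.21, and 1, Krt10, was called lower, at 27671 ± 4471 against 15789.9 ± 2358 FPKM (SD, n = 3; limma adjusted p = 0.0438, lost in 10 of 17 other settings). Of 7 basal markers, all tested, 2 had a positive change, with a median of -0.78, and 1, Krt15, was called lower, at 1723 ± 439.7 against 260.2 ± 189.7 FPKM (SD, n = 3; limma adjusted p = 0.0269, lost in 4 of 17 other settings). Over all tested genes, 5.14% were called higher and 5.90% lower, and the median change was -0.09. A positive change was found in 4601 of the 11071 tested genes. The part of such layer differences in the S100 values was not tested. In such bulk samples, fewer cells of a type and less RNA per cell cannot be told apart.

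The starts of S100a8 and S100a9, the pair with the largest changes, are shown with that of S100a11, an abundant member that was not called. Each sequence is the 250 bases before the start, 5′ to 3′ on the gene's strand, from RefSeq (GRCm38.p6), a build that may differ from the one behind the table. S100a8 is at chr3:90668821-90669070 on the plus strand, S100a9 at chr3:90695722-90695971 on the minus strand and S100a11 at chr3:93520246-93520495 on the plus strand. Capitals mark matches to 4 motifs searched on both strands, AP-1 (TGANTCA), STAT (TTCNNNGAA), C/EBP (TTGCNNAA) and NF-kB (GGGNNTTCC).
S100a8: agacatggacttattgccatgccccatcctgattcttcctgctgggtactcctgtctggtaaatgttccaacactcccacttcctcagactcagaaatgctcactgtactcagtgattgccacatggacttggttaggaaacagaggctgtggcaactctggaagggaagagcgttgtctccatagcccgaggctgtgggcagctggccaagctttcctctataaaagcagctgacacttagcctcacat
S100a9: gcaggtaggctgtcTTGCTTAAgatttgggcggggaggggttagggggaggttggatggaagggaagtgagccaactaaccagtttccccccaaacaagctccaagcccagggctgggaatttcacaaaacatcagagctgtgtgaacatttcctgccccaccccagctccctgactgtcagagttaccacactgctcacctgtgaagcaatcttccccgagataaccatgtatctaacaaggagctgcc
S100a11: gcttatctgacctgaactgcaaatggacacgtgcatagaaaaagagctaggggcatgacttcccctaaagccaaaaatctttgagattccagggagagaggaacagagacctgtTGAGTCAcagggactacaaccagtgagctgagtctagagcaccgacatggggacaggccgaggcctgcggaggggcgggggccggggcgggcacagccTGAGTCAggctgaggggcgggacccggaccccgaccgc

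The S100a8 window held none of the 4 motifs. In the S100a9 window a C/EBP match, TTGCTTAA, lay at positions -236 to -229 from the start, and the S100a11 window held the AP-1 match TGAGTCA at -136 to -130 and again at -38 to -32. Of 32851 windows of this length in the table, 6.75% held the AP-1 motif, 7.02% STAT, 9.56% C/EBP and 4.98% NF-kB. The table held 12 windows for 8 of the members. Besides those printed, S100a16 had an AP-1 match in 1 of its windows and S100a7a a STAT match, and no member's window held the NF-kB motif. A match is a string of letters, not a shown binding site.

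Transcripts of the calprotectin pair rose in K10-spastin. S100a14 had a smaller change that passed at the threshold (limma adjusted p = 0.0496) and was lost in 13 of 17 other settings. Its neighbour S100a16 (limma adjusted p = 0.0519) and S100a6 (limma adjusted p = 0.0620) fell just short. S100a10 and S100a11 passed in neither direction. A mean of 1 FPKM or more, taken across all libraries, was reached by 7 of the 10 members. These were tested with limma on log2(FPKM + 1), two-sided, with Benjamini-Hochberg adjustment over all 11071 genes that reached it. Of the 7, S100a8, S100a9 and S100a14 were called higher and none lower, where 5.14% of all tested genes were called higher and 5.90% lower. S100a8 was tested only because of its K10-spastin values, so the count of 3 among 7 is not support for a shift of the family. The groups did not overlap for 5 of the 7, against 40.4% of all tested genes. With no filter on low values, S100a8 alone of the 10 was called, against 3.18% of all genes.

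**Figure D1:**
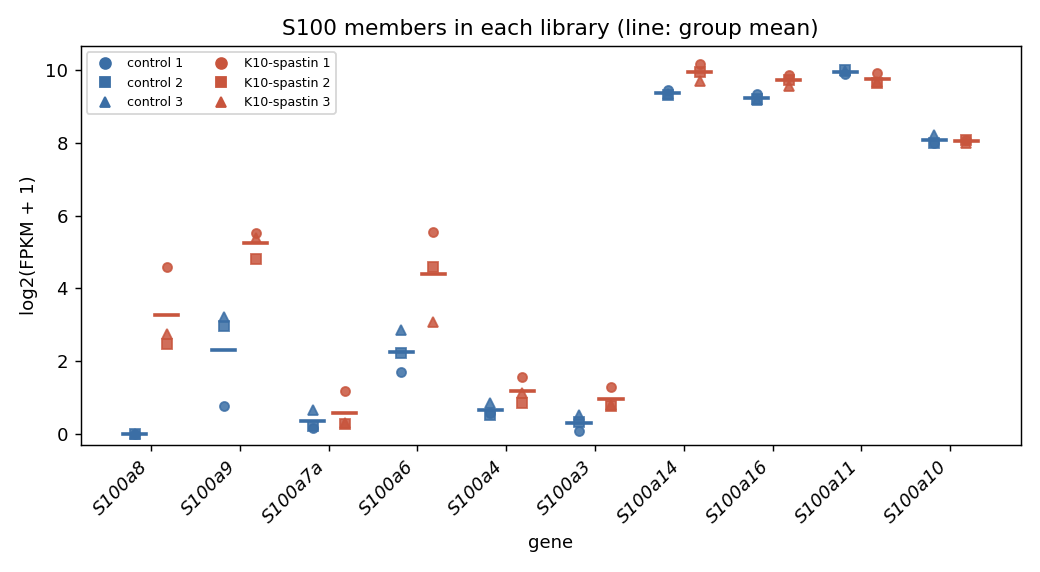
Level of each of the 10 S100 members, as log2(FPKM + 1), in the 3 control (blue) and 3 K10-spastin (red) libraries, with a line at each group's mean. S100a8 is at 0 in each control, S100a9 and S100a6 lie higher in K10-spastin, and S100a14, S100a16, S100a11 and S100a10 stand far above the other 6 members.

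S100a8 (ENSMUSG00000056054), the smaller calprotectin subunit, was listed at 0 in all 3 controls, and read 23.1, 4.56 and 5.73 FPKM in K10-spastin libraries 1, 2 and 3. The groups did not overlap, and K10-spastin 1 stood well above the other 2. The smallest whole numbers of fragments that fit these values were 157, 35 and 39, and 3 fragments in a control would have read 0.340 to 0.478 FPKM. The log2 change was 3.27 ± 0.52 (SE; limma adjusted p = 0.0147). Because the controls are at 0, its size depends on the pseudocount, with 4.18 at 0.5 and 6.42 at 0.1, and no fold is given. Of the tested genes, 6 were listed at 0 in every control, and 10 housekeeping genes read at least 4.03 FPKM in each library. The S100a8 call was lost without control 2 (limma adjusted p = 0.0587) and without control 3 (limma adjusted p = 0.0630).

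S100a9 (ENSMUSG00000056071), the larger subunit, read 0.689, 6.78 and 8.31 FPKM across control libraries 1, 2 and 3, whereas the K10-spastin libraries read 45.5, 27.0 and 41.1. Each K10-spastin library was above each control, and control 1 lay far below the other controls. The log2 change was 2.94 ± 0.62 (SE; limma adjusted p = 0.0297), from 5.26 ± 4.03 to 37.9 ± 9.63 FPKM (SD, n = 3). The change was 2.16 without control 1 (limma adjusted p = 0.0196). The S100a9 call was lost when any of the other 5 libraries was left out (limma adjusted p 0.0524 to 0.0674) and with no filter (limma adjusted p = 0.0646).

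Control 1 was also the lowest control for the summed markers of some other cells. The 7 fibroblast markers summed to 6.44, 22.5 and 42.3 FPKM over the controls, and to 0.791 to 3.03 FPKM in K10-spastin, below every control. The 6 periderm markers summed to 67.9, 85.5 and 86.8 FPKM over the controls, again lowest in control 1, and to 80.0 to 113 FPKM in K10-spastin. Grhl3 made up most of the K10-spastin sums. Of 5 tested periderm markers, 1, Grhl3, had a positive change. Their median log2 change was -1.23, against -0.09 over all 11071 tested genes, of which 4601 had a positive change. Krt13, called lower, read 6.91, 12.7 and 26.1 FPKM over the controls and 0.583, 0.129 and 3.79 over K10-spastin (limma adjusted p = 0.0341, lost in 7 of 17 other settings). Grhl3, called higher and highest among the controls in control 1, read 58.5, 54.9 and 39.0 FPKM over the controls and 108, 90.4 and 72.1 over K10-spastin (limma adjusted p = 0.0498, lost in 14 of 17 other settings). The part of these cells in the S100a9 values was not tested.

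In K10-spastin 1, 2 and 3 the level of S100a8 was 0.508, 0.169 and 0.140 times that of S100a9, highest in K10-spastin 1. The log2 ratio of the pair, with a pseudocount of 1, was -2.31 ± 1.35 in control and -1.98 ± 0.903 in K10-spastin (SD, n = 3; two-sided exact permutation p = 0.6, where 3 against 3 cannot go below 0.1). The difference between those means, 0.34, became 3.05 with a pseudocount of 0.1 (exact permutation p = 0.1). S100a9 was read in each control, with S100a8 listed at 0 there. The control ratio therefore rests on S100a9 and the pseudocount alone. For that reason neither permutation p can tell whether the ratio of the pair changed.

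Neutrophils and monocytes carry both transcripts in quantity, and their markers were read in the same libraries. Of 10 neutrophil markers, 3, Ly6g, Elane and Retnlg, were at 0 in all 6 libraries. The list summed to 0.226 to 0.294 FPKM in control and to 0.750 to 3.47 in K10-spastin, most of the latter being Cxcr2. This chemokine receptor read 0.0507, 0.0712 and 0.0459 FPKM over the controls against 3.37, 1.90 and 0.635 in K10-spastin, without overlap, a log2 change of 1.38 ± 0.35 (limma adjusted p = 0.0492). Cxcr2, like S100a8, was tested only because of its K10-spastin values, so its call is not support for a change of the list. The call was lost in 10 of 16 other settings, among them no filter (limma adjusted p = 0.0795) and any library but K10-spastin 3 left out (limma adjusted p up to 0.149). The other 9 neutrophil markers summed to 0.155 to 0.248 FPKM in control and 0.0495 to 0.115 in K10-spastin. Among them Camp, too low to be tested, lay wholly below control. It read 0.0740, 0.104 and 0.201 FPKM over the controls and 0 in each K10-spastin library. The part of neutrophils in the S100a8 and S100a9 values was not tested.

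Of 11 macrophage and monocyte markers, 2 were tested and neither passed. The list summed to 9.85 to 15.0 FPKM in control and 16.7 to 44.8 in K10-spastin, most of the latter being the lysosomal gene Cd68. Cd68 alone read 10.7, 4.73 and 4.01 FPKM over the controls and 39.0, 17.9 and 12.6 over K10-spastin. Cd68 had a change of 1.65 ± 0.46 (limma adjusted p = 0.0610) and passed in 4 of 17 other settings, among them without K10-spastin 3 (limma adjusted p = 0.0409). The other tested marker was Itgam, with -0.22 ± 0.21 (limma adjusted p = 0.526). K10-spastin lay wholly above control for 3 of the 11, Cd68, Adgre1 and Mrc1, and wholly below for none. It lay wholly above in 9.97% of all genes above 0 in any library and in 15.6% of the tested genes. Wholly below control were 2750 of the 11071 tested genes. Adgre1, the F4/80 antigen, was at most 0.0196 FPKM in control and read 0.109, 0.257 and 0.0543 in K10-spastin. Mrc1, the mannose receptor, was at most 0.0804 FPKM in control and read 0.288, 0.459 and 0.0958 in K10-spastin. The complement genes C1qa and C1qb were highest in K10-spastin 2, at 1.62 and 1.74 FPKM, and their groups overlapped. The leukocyte gene Ptprc was at most 0.0271 FPKM in control and read 0.158, 0.140 and 0.0176 FPKM in K10-spastin, and the lysozyme Lyz2 was at most 0.444 FPKM in control and 0.242 in K10-spastin. Cd207 of Langerhans cells and Cd3e of T cells were at 0 in all 6. The part of macrophages and monocytes in the S100a8 and S100a9 values was not tested.

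**Figure D2:**
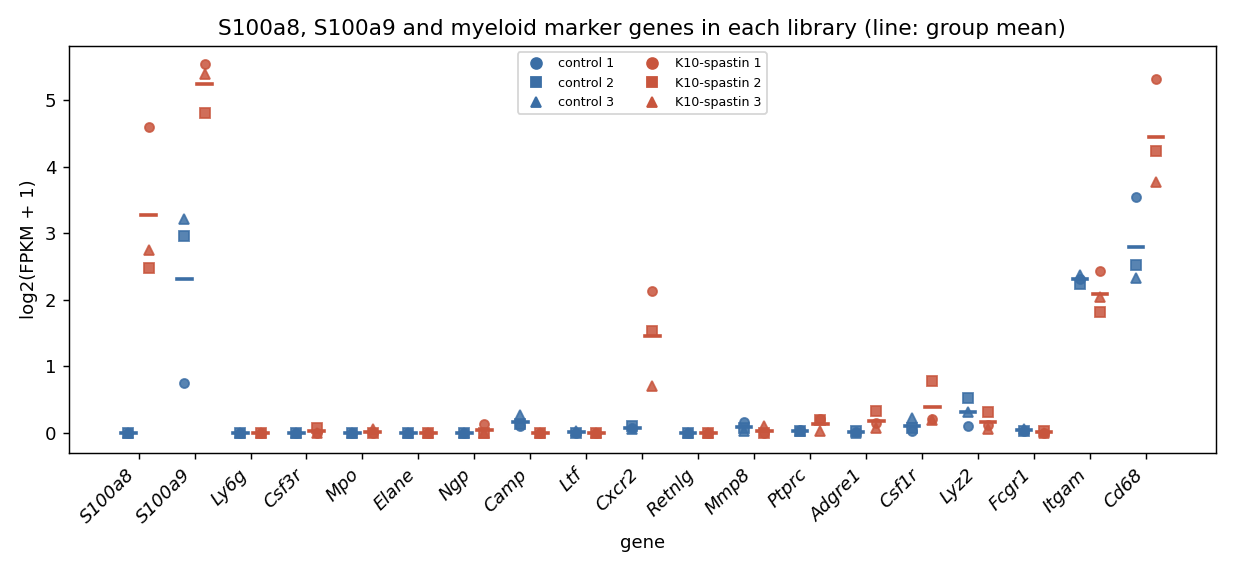
S100a8 and S100a9 beside 10 neutrophil markers (Ly6g to Mmp8) and 7 markers of macrophages and leukocytes, as log2(FPKM + 1), in each control (blue) and K10-spastin (red) library, with lines at group means. Cxcr2 is the single neutrophil marker with K10-spastin libraries well above 0, and Cd68 is the highest of the macrophage markers.

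S100a7a (ENSMUSG00000063767), a mouse relative of human psoriasin, lay close to the limit of detection. Controls 1, 2 and 3 read 0.120, 0.169 and 0.571 FPKM, which fits 2, 2 and 7 fragments, and K10-spastin read 1.24, 0.207 and 0.233 FPKM, which fits 16, 3 and 3. K10-spastin 1 was high and the other 2 fell among the controls. It was too low to be tested, and in the fit with no filter its change was 0.23 ± 0.27 (limma adjusted p = 0.640).

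S100a14 (ENSMUSG00000042306) and S100a16 (ENSMUSG00000074457), which are neighbouring genes, were among the abundant transcripts of these cells. S100a14 read 699, 643 and 648 FPKM across the control libraries and 1147, 1000.4 and 831 across K10-spastin 1, 2 and 3. Every K10-spastin library lay above every control, with K10-spastin 3 closest to them. The log2 change was 0.57 ± 0.15 (SE; limma adjusted p = 0.0496), from 663 ± 31.5 to 993 ± 158 FPKM (SD, n = 3). This call sat at the threshold and was lost in 13 of 17 other settings (limma adjusted p up to 0.171), among them any control left out.

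S100a16 came close without passing. It read 647, 597 and 583 FPKM over the controls and 936, 853 and 764 over K10-spastin, again without overlap. Its log2 change was 0.48 ± 0.12 (SE; limma adjusted p = 0.0519), and it passed in 3 of 17 other settings (limma adjusted p 0.0138 to 0.0492). S100a14 was 1.08, 1.08 and 1.11 times S100a16 in controls 1, 2 and 3, and 1.22, 1.17 and 1.09 times in K10-spastin.

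S100a10 (ENSMUSG00000041959), the partner of annexin A2 at membranes, is unusual among S100 proteins in that it does not respond to calcium. Its level was 255, 257 and 295 FPKM over the controls and 269.8, 273 and 256 over K10-spastin, with overlap. The log2 change was -0.01 ± 0.11 (SE; limma adjusted p = 0.955), and median-of-ratios scaling turned its sign, to 0.14.

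S100a11 (ENSMUSG00000027907), which binds annexin A1 and is cross-linked into the cornified envelope, was the most abundant member in control. It read 954, 1032 and 1011 FPKM over the controls and 969, 808 and 817 over K10-spastin. K10-spastin 1 fell among the controls and the other 2 lay below them. The log2 change was -0.21 ± 0.12 (SE; limma adjusted p = 0.283), and it passed with array weights alone, at -0.30 (limma adjusted p = 0.0273). Its transcript has 5 near-copies elsewhere, Gm12854, Gm13640, Gm29240, Gm7665 and S100a11-ps, at 90.5% to 99.0% identity over 227 to 303 bases, so its reads could be split among them.

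S100a6 (ENSMUSG00000001025), or calcyclin, binds the calcyclin-binding protein Cacybp and varied widely among K10-spastin libraries. It read 2.23, 3.65 and 6.22 FPKM over the controls against 45.9, 23.2 and 7.37 in K10-spastin 1, 2 and 3. The groups did not overlap, but K10-spastin 3 was only just above control 3. The log2 change was 2.15 ± 0.61 (SE; limma adjusted p = 0.0620), and S100a6 passed in 1 of 17 other settings, without K10-spastin 3, at 2.82 (limma adjusted p = 0.0120). It was 1.30 without control 1 and K10-spastin 1 together (limma adjusted p = 0.171).

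Spast itself read 1431, 639 and 213 FPKM in K10-spastin 1, 2 and 3. S100a6, S100a14 and S100a16 had the same order over these libraries, whereas S100a8 and S100a9 were lowest in K10-spastin 2. With 3 libraries such orders were not tested.

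S100a4 (ENSMUSG00000001020), which binds nonmuscle myosin and is best known from mesenchymal cells, read 0.501, 0.422 and 0.816 FPKM over the controls, from 5, 3 and 6 fragments, and 1.95, 0.806 and 1.17 over K10-spastin, from 15, 7 and 9. K10-spastin 2 lay just under control 3, so the groups overlapped. Of its 584 annotated exon bases, 302 are shared with Gm42674, so its reads are uncertain. S100a3 (ENSMUSG00000001021), a protein of the hair cuticle, read 0.0625, 0.263 and 0.424 FPKM over the controls, from 1, 3 and 5 fragments, and 1.46, 0.718 and 0.728 over K10-spastin, from 18, 10 and 9. Its groups did not overlap, and some of its exon bases are shared with Gm42674 too. Both were too low to be tested. In the fit with no filter, S100a4 had a change of 0.52 ± 0.22 (limma adjusted p = 0.217) and S100a3 of 0.64 ± 0.18 (limma adjusted p = 0.108).

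Across all 10 members, K10-spastin lay wholly above control in 6, S100a3, S100a6, S100a8, S100a9, S100a14 and S100a16, and wholly below in none. It lay wholly above in 9.97% of the genes above 0 in any library and in 15.6% of the tested genes. Wholly below control were 2750 of the 11071 tested genes. Of the 6, S100a3 was too low to be tested, and S100a8 was tested only because of its K10-spastin values. The count of 6 is thus not support for a shift of the family. By mean level in control the order was S100a11, S100a14, S100a16, S100a10, S100a9 and S100a6, and then S100a4, S100a7a, S100a3 and S100a8 below 1 FPKM. The control values of S100a14 and S100a16 overlapped, as did those of S100a9 and S100a6. Among all genes S100a11 ranked 89 to 97 in control, and S100a9 ranked 6941 to 11570 in control and 2242 to 3755 in K10-spastin.

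Together the members held 0.402, 0.398 and 0.405% of all FPKM in controls 1, 2 and 3, and 0.535, 0.457 and 0.419% in K10-spastin. The controls lay close together, and K10-spastin 3 was only slightly above them. S100a10, S100a11, S100a14 and S100a16 made up at least 96.5% of that sum in each library, so S100a8 and S100a9 added little to it. With the abundant keratins Krt1 and Krt10 left out of the total, the share was 0.427 to 0.444% in control and 0.441 to 0.565% in K10-spastin, and K10-spastin 3 then fell among the controls.

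**Figure D3:**
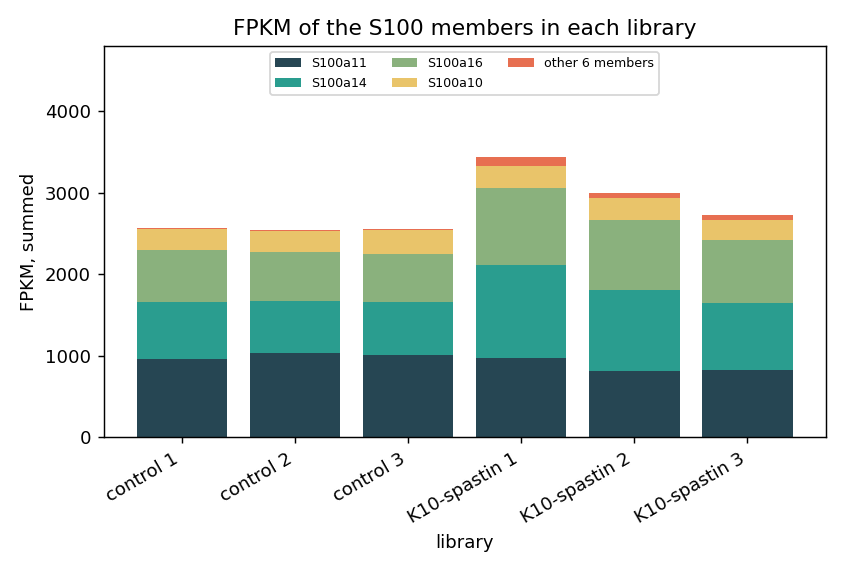
Summed FPKM of the S100 members in each library, with S100a11, S100a14, S100a16 and S100a10 shown apart and the other 6 members together. K10-spastin 1 has the tallest bar, at 3441 FPKM, and the 3 controls have bars of similar height.

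Along chromosome 3, RefSeq lists S100a1, S100a13, S100a14, S100a16, S100a3, S100a2, S100a4, S100a5, S100a6, S100a7a, S100a8 and S100a9 in this order, with S100a11 and S100a10 together at the far side of the epidermal differentiation complex. Next to S100a14, S100a1 had a change of 0.14 ± 0.24 (limma adjusted p = 0.737) and S100a13 one of -0.11 ± 0.22 (limma adjusted p = 0.762), which quantile normalization turned to 0.09. The genes on either side were chosen after their values were seen. Ilf2, Snapin and Chtop, before S100a1, were not called. Pglyrp4, a secreted antibacterial protein encoded after S100a9, rose from 1.02 ± 0.490 to 13.6 ± 12.7 FPKM (SD, n = 3), a log2 change of 2.54 ± 0.55 (limma adjusted p = 0.0318). Its relative Pglyrp3 rose from 3.10 ± 1.51 to 23.7 ± 15.7 FPKM (SD, n = 3), a log2 change of 2.42 ± 0.55 (limma adjusted p = 0.0355). In other settings the call was lost in 4 of 17 for Pglyrp4 and 8 of 17 for Pglyrp3, among them any control left out for both and K10-spastin 1 or 2 left out for Pglyrp3 (limma adjusted p up to 0.114).

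**Figure D4:**
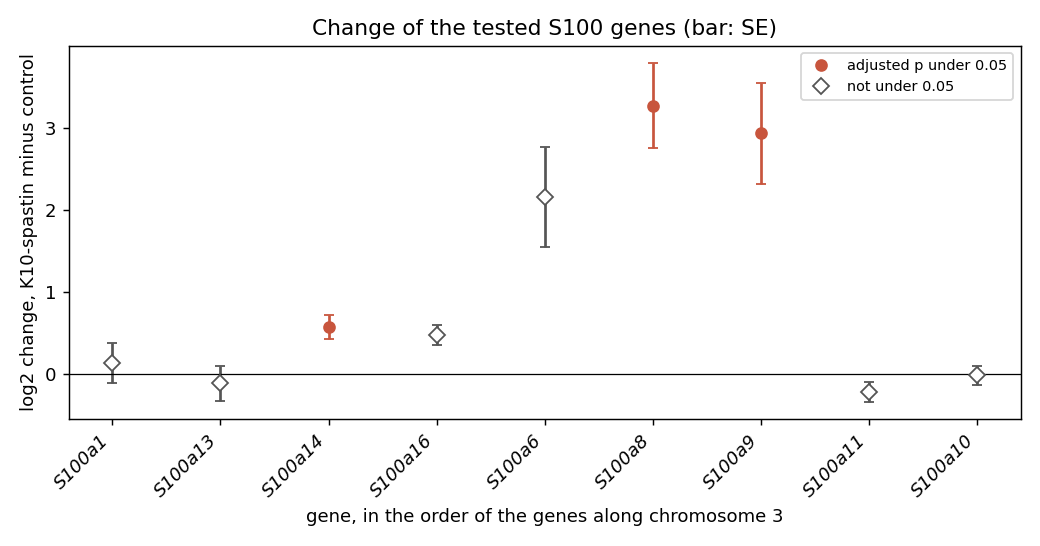
Log2 change, K10-spastin minus control on the log2(FPKM + 1) scale, with its SE as a bar, for the 9 tested S100 genes in RefSeq order along chromosome 3. Filled points passed an adjusted p under 0.05; S100a8 and S100a9 are the highest and S100a11 and S100a10 lie near 0.

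The remaining S100 genes were low in both groups. Of 7 others in the table, S100a5 and S100g were at 0 in all 6 libraries. S100a2, S100b and S100z read at most 0.549 FPKM, and S100a1 and S100a13 read 1.49 to 3.17 FPKM.

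Fused-type S100 proteins carry an S100 domain ahead of long repeats and build the granular layer and cornified envelope. Of 5 tested, 1 rose and none fell, where over all tested genes 5.14% higher and 5.90% lower were called. Rptn (repetin) read 0.204, 0.497 and 0.758 FPKM over the controls and 51.8, 41.0 and 41.7 over K10-spastin, far apart, a log2 change of 4.96 ± 0.21 (limma adjusted p = 1.23e-04) that passed in all 17 other settings, no filter included (limma adjusted p = 0.00114). Its controls averaged under 1 FPKM, so Rptn too was tested only because of its K10-spastin values, and the count of 1 among 5 is not support for a shift of the group. Crnn (cornulin) read 1.23, 1.04 and 1.22 FPKM over the controls and 16.6, 9.45 and 1.91 over K10-spastin and did not pass (limma adjusted p = 0.0782). The change was 1.19 ± 0.49 for Flg2 (limma adjusted p = 0.147), 0.15 ± 0.75 for Hrnr (limma adjusted p = 0.912) and -0.39 ± 0.31 for Tchh (limma adjusted p = 0.426), the trichohyalin of the hair sheath. The sign of Hrnr turned without control 1 (-0.45) and without K10-spastin 3 (-0.64). Tchhl1 was too low to be tested. It read 0.0215, 0 and 0 FPKM over the controls and 0.558, 0.0742 and 0.195 over K10-spastin. In the fit with no filter the Tchhl1 change was 0.32 ± 0.13 (limma adjusted p = 0.204).

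Among 13 intracellular partners of S100 proteins, 1 rose and 1 fell, with a median log2 change of -0.09, against -0.09 over all tested genes, of which 5.14% higher and 5.90% lower passed. Cacybp, the partner of S100a6, rose from 29.4 ± 4.07 to 54.3 ± 9.14 FPKM (SD, n = 3), a log2 change of 0.86 ± 0.18 (limma adjusted p = 0.0282) that was lost in 7 of 17 other settings, among them any library but K10-spastin 1 left out (limma adjusted p up to 0.114). Anxa6, an annexin that binds membranes, fell by 1.50 on the log2 scale, from 7.50 ± 0.222 to 2.07 ± 0.761 FPKM (SD, n = 3; limma adjusted p = 0.0131), a call lost without control 2 or without control 3 (limma adjusted p up to 0.0685). Anxa2, the partner of S100a10, had a change of -0.14 ± 0.11 (limma adjusted p = 0.427), and Anxa1, that of S100a11, one of -0.39 ± 0.19 (limma adjusted p = 0.198). The sign for Anxa2 turned with median-of-ratios scaling, to 0.00606.

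Of 11 receptors of released S100 proteins and their adaptors, 8 were tested, 1 rose and 1 fell, beside 5.14% higher and 5.90% lower over all tested genes. Their median log2 change was -0.05, against -0.09 over all. Myd88, the adaptor of Toll-like receptors, rose from 20.1 ± 0.688 to 35.2 ± 3.02 FPKM (SD, n = 3), a log2 change of 0.77 ± 0.13 (limma adjusted p = 0.0175). The Myd88 call was lost in 4 of 17 other settings, among them any control left out (limma adjusted p up to 0.0907). Alcam, an adhesion receptor, fell by 1.05 on the log2 scale, from 17.3 ± 1.16 to 7.85 ± 0.936 FPKM (SD, n = 3; limma adjusted p = 0.0128). The Alcam call was lost in 3 of 17 other settings, among them without control 2 or without control 3 (limma adjusted p up to 0.0758). Tlr4, a receptor of S100a8, was too low to be tested, at no more than 0.553 FPKM, and Ager, which encodes RAGE, did not pass (limma adjusted p = 0.191). Bsg (basigin), a receptor of S100a9, had a change of 0.12 ± 0.14 (limma adjusted p = 0.585), which array weights turned to -0.03. Erbb2 had one of -0.01 ± 0.15 (limma adjusted p = 0.982), which median-of-ratios scaling turned to 0.14.

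Of 10 tested genes known as regulators of S100a8 and S100a9, 2 rose and none fell, beside 5.14% higher and 5.90% lower over all tested genes. Their median log2 change was 0.24, against -0.09 over all, and 6 of the 10 had a positive change, beside 4601 of all 11071 tested genes. Irf7 (-1.67), Nfkbiz (-0.72), Il17rc (-0.45) and Cebpd (-0.27) had negative changes and were not called (limma adjusted p 0.0887 to 0.312). Il22ra1, the IL-22 receptor chain of keratinocytes, rose from 10.4 ± 1.35 to 24.1 ± 6.03 FPKM (SD, n = 3), a log2 change of 1.11 ± 0.21 (limma adjusted p = 0.0209). The Il22ra1 call was lost in 4 of 17 other settings, among them any control left out (limma adjusted p up to 0.0970). Cebpb, a C/EBP factor of keratinocytes, read 147, 232 and 224 FPKM over the controls and 539.6, 358 and 319 over K10-spastin, without overlap. Its log2 change of 1.00 ± 0.25 (limma adjusted p = 0.0476) was lost in 12 of 17 other settings, among them any library but K10-spastin 3 left out (limma adjusted p up to 0.117). Cebpa, abundant in both groups, had a change of 0.26 ± 0.13 (limma adjusted p = 0.227).

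Among tested genes outside the family, the 5 whose log2(FPKM + 1) followed that of S100a8 most closely over the 6 libraries were Nlrc5, Defb14, Slc5a8, Itsn2 and Ippk, with Pearson's r of at least 0.996. Since S100a8 is at 0 in the controls, these values are a description that rests mainly on 3 libraries. Defb14, a beta-defensin of skin, read 0, 0.306 and 0 FPKM over the controls and 35.0, 6.76 and 9.32 over K10-spastin. In control, Nlrc5 read at most 0.0980 FPKM and Slc5a8 at most 0.0587. Like S100a8, Defb14, Nlrc5 and Slc5a8 were tested only because of their K10-spastin values. Itsn2 read 10.5 to 11.5 FPKM in control and 17.5 to 25.7 in K10-spastin. Ippk read 4.16 to 4.53 FPKM in control and 8.51 to 13.9 in K10-spastin.

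**Figure D5:**
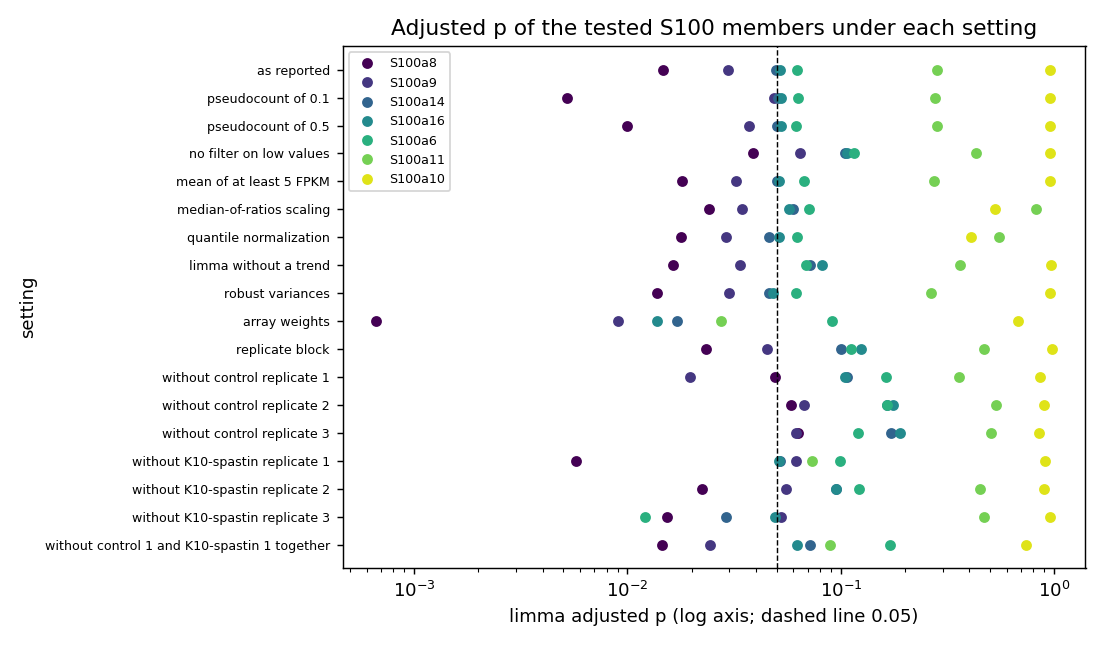
Limma adjusted p (log axis) of each tested S100 member as reported and under 17 other settings, with a dashed line at 0.05. S100a8 lies left of the line in all but the fits without control 2 or control 3, S100a14 and S100a16 lie close to it in many, and S100a10 lies right of it throughout.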

How the data were processed

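Messenger RNA was read in 6 libraries, 3 per group. The deposited FPKM table was computed by the authors, and the submitters' processing notes name CASAVA and TopHat2. Counter, genome build, annotation and strandedness were not given in the sources used here. Reads of overlapping genes could be shared. Symbols matched 34490 of 35275 identifiers. Genes averaging at least 1 FPKM across the libraries were compared on log2(FPKM + 1), a scale that understates changes of low genes, by limma 3.58.1 in R 4.3.3 (trend, two-sided), checked on simulated data.

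Depth was estimated from the step of values up to 20 fragments in 14953 genes with 1 annotated transcript (GENCODE M21 exon lengths), where 90.8% to 91.8% were whole within 0.05. For low members, fragments are the smallest whole numbers that fit within 0.03. They show counting precision only and were not tested.

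The family and the gene lists were chosen with earlier results of these data known. Members, other S100 genes and fused-type genes found in the deposited data were named throughout, and of every other list up to 4 genes, 2 by smallest p and 2 by highest mean. Other cell types are given as marker levels, and some genes of the lists (Krt13, Krt15, Grhl3, Adgre1, Mrc1, C1qa, C1qb, Ptprc, Lyz2, Cd207, Cd3e, Tlr4, Ager, Irf7, Nfkbiz, Il17rc, Cebpd and the neutrophil genes) were named after their values were seen. Copies were sought with BLAST 2.17.0 (at least 90% identity over 200 bases). Python 3.11.15, pandas 2.3.3, scipy 1.17.1 and matplotlib 3.10.9 were used. Alternatives covered pseudocounts, filters, scaling, variance models, a replicate block and libraries left out.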

Additional observations from a re-analysis of the deposited data

How the results depend on the processing

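In 17 other settings, the count of 3 S100 members called higher became 1 with no filter and 0 to 4 with single libraries left out (0 without control 2 or without control 3, and 1 without K10-spastin 1 or without K10-spastin 2). No called member changed sign. The log2 change of S100a8 was 2.61 to 3.67 with single libraries left out, that of S100a9 2.16 to 3.39, that of S100a14 0.46 to 0.69, that of S100a16 0.41 to 0.55, that of S100a6 1.58 to 2.82 and that of S100a10 -0.0483 to 0.0560. S100a9 was not called with no filter (2.94). S100a14 was not called at 0.57 with pseudocounts of 0.1 and 0.5, no filter, a mean of at least 5 FPKM, no trend or the replicate block, at 0.72 with median-of-ratios scaling, or at 0.50 without control 1 and K10-spastin 1 together. S100a16 was called with robust variances (0.48), array weights (0.41) and without K10-spastin 3, S100a6 without K10-spastin 3, and S100a11 with array weights (-0.30), the 1 member called lower. The cause was not tested, and fits with a library left out have fewer samples. Low depth limits S100a3, S100a4 and S100a7a.

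Over all genes, 569 higher and 653 lower became 319 and 348 with no filter, 1535 and 1771 with array weights, 274 and 218 with the replicate block, 795 and 655 with median-of-ratios scaling, 607 and 888 with quantile normalization, and 113 to 691 and 32 to 701 with single libraries left out. With a mean of at least 5 FPKM, 414 were lower. The median log2 change of all tested genes was -0.09 as deposited, 0.04 with median-of-ratios scaling and -0.04 with quantile normalization. Changes near 0 that turned sign were S100a10 (0.14 with median-of-ratios scaling), S100a13 (0.0872 with quantile normalization, 0.0280 without control 1 and K10-spastin 1), S100a1 (-0.0335 to 0.279 with single libraries left out), Anxa2 (0.00606 with median-of-ratios scaling), Bsg (-0.0322 with array weights), Hrnr (-0.64 to 0.61 with single libraries left out, -0.13 without control 1 and K10-spastin 1) and Erbb2 (0.14 with median-of-ratios scaling, 0.00279 with array weights, 0.13 without control 1 and K10-spastin 1, -0.134 to 0.0753 with single libraries left out).

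Same-numbered libraries did not deviate together (r = -0.13, -0.38 and -0.05 across genes, and no library correlated best with its own number), so the numbers were not taken to pair samples. With the replicate block S100a8 (limma adjusted p = 0.0234) and S100a9 (limma adjusted p = 0.0453) were called and S100a14 (limma adjusted p = 0.1001) was not.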
